A study of Mus musculus with 8 samples.

Results

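A set of 8 retinoid genes was followed in the dorsal skin of hairless mice: the cellular retinoic acid binding proteins Crabp1 and Crabp2, the retinaldehyde dehydrogenases Aldh1a1 and Aldh1a3, the retinoic acid hydroxylase Cyp26b1, the dehydrogenase Dhrs9 and the retinoic acid receptors Rara and Rarg. Crabp1 was chosen by its diet difference in these same arrays, and the other genes were added by name. All probe sets to which the platform annotation gave exactly 1 of these symbols were taken, which found 10 probe sets for 7 of the 8 genes, out of 45037 probe sets and 18193 genes. Dhrs9 is not analysed here. For a gene with several probe sets, the one with the highest mean over the 8 arrays was its main probe set. Aldh1a3 had 3, with means of 8.56, 8.32 and 7.81 on the deposited log2 scale, and Rarg had a pair with means of 9.59 and 8.01.

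Vitamin A reaches the skin as retinol, which is oxidised to retinal and then, irreversibly, to retinoic acid by retinaldehyde dehydrogenases. Inside the cell, retinoic acid is bound by the CRABP proteins, broken down by the CYP26 hydroxylases, and sensed by nuclear retinoic acid receptors that act on DNA as partners of the RXR receptors. In skin this pathway is known for its effects on keratinocyte differentiation, sebaceous glands and the hair follicle, and Crabp1 is known as a gene of the dermal papilla, the mesenchymal core of the follicle.

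The animals, all females of the hairless strain Hos:HR-1, were aged 10 weeks when the skin was taken. The 4 control mice had eaten the AIN-93G diet for 1 week. The 4 mice of the collagen group had eaten, also for 1 week, that diet mixed with collagen hydrolysate, a digest of fish scale collagen, at 2.0 g per 100 g of diet. Mice were kept 4 to a cage and more were assigned to each diet than gave arrays, and the sources used here do not give the cage behind each array. Diet and cage therefore cannot be told apart. Each array measured RNA from whole powdered skin, the hair follicles of this strain are abnormal, and in such bulk tissue fewer cells of a type and less RNA per cell cannot be told apart.

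All 7 basal epidermal, all 8 suprabasal and all 9 dermal fibroblast markers had means of at least 8.193, the median over the array, and so did all 10 skeletal muscle markers. Of 5 liver genes used as a contrast only Cyp2e1 did. Array medians ran from 8.1929 to 8.1932, with the collagen 1 array at -254.9 millionths of a log2 unit from their mean and the other arrays between -27.8 and 75.8. The array medians spanned 330.7 millionths, more than the range over arrays of 92.1% of genes, and this holds for Crabp2, Rara and Rarg. For such genes, subtracting each array's median writes the array medians into the values, so their directions and correlations after median centring are fixed by that step and are given only for completeness. The median range per gene was 9.16 millionths, and single genes and marker groups such as skeletal muscle varied far more. Values below are deviations from a probe set's mean over 8 arrays in millionths of a log2 unit on the deposited scale. How such a difference relates to a fold change in RNA is unknown, and no fold change is given. Each difference is also given in units of the gene's own SD within a diet. The SE printed with a difference is the moderated SE of the limma fit, which draws on the variances of all probe sets. The SD is not moderated. Only 4 arrays per diet limit the precision, and the p-values measure the spread between these samples.

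Sequence upstream of the annotated start sites was read for the members from RefSeq on build GRCm38.p6, as windows of 250 bases, to show the regulatory DNA beside the measurements. Of the 7 genes 5 matched, and Crabp2 and Aldh1a3 did not. The motifs searched on both strands were the GC box GGGCGG, the TATA box TATAAA and the half-sites AGGTCA and AGTTCA that retinoic acid receptors recognise as pairs. The Crabp1 window, chr9:54764498-54764747 on the plus strand, is shown for the gene that was picked for its diet difference. The Rarg window, chr15:102257523-102257772 on the minus strand, is shown for the receptor whose probe set had the smallest p among the main probe sets tested. Capitals mark GC boxes on either strand.
Crabp1: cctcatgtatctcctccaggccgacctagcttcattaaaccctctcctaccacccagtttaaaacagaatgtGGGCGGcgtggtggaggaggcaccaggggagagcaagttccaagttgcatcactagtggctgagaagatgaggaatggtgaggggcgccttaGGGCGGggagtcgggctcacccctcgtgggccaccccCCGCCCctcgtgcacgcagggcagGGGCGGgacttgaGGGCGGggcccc
Rarg: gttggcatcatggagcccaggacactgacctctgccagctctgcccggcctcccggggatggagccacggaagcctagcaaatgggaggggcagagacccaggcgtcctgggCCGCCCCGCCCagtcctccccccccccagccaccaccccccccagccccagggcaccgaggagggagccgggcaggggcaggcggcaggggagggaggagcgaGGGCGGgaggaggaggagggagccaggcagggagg
Crabp1 held 5 GC boxes, no TATA box and no half-site in a window of 63.6% G and C, where the median of all 32851 windows was 52.4%. The Rarg window held 3 GC boxes, of which a pair overlap, and 1 AGGTCA half-site that is left in lower case, at 74.4% G and C. A second annotated Rarg start had none of these motifs. Cyp26b1 held 3 GC boxes and 1 TATA box, the Aldh1a1 windows held none of the motifs, and 4 Rara starts held 4, 4, 0 and 1 GC boxes, with 1 AGTTCA half-site in the window that has no GC box. A GC box was present in 32.7% of all windows, a TATA box in 12.4%, AGGTCA in 14% and AGTTCA in 11.8%. These matches describe the letters only.

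Crabp1, the cytosolic carrier of retinoic acid, lay lower with the collagen diet in every array. Its probe set 1448326_a_at had a mean of 9.3508 and deviated by 175.7, 447.6, 317.5 and 334.9 millionths in control 1 to 4, and by -50.2, -579.5, -217.0 and -429.1 in collagen 1 to 4. The diets did not overlap, with collagen 1 the nearest to the controls and collagen 2 the farthest. Collagen minus control was -637.9 ± 123.9 millionths (SE, n = 4 per diet), or -3.49 within-diet SD. Since the gene was picked for this difference, it is a description and carries no test. Across all genes, 0.671% had every collagen value below every control value, and 2.02% had no overlap in either direction. The collagen arrays were more spread for Crabp1, with an SD of 232.8 millionths against 111.5 in controls. Its range over arrays, 1027.1 millionths, was larger than that of 95.9% of genes.

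Leaving out a single array cannot make separated diets overlap, so Crabp1 stayed without overlap by construction. Its difference then ran between -727.5 and -551.1 millionths. Of all genes 3.31% to 8.75% were without overlap in these settings, a share that includes genes separated only by the removal. The separation ended under both other scalings of the arrays. After each array was centred on its median, Crabp1 deviated by 109.0, 410.4, 283.3 and 362.7 in controls and by 204.7, -613.4, -292.7 and -464.1 in collagen arrays, so that collagen 1 lay above control 1. After quantile normalization collagen 1, at 215.9, lay inside the control range of 91.7 to 445.0, and the difference was -422.2 millionths. Under these scalings 0.0824% and 0.22% of all genes were without overlap. The other 3 collagen arrays lay below all controls under both scalings. Among 9 dermal papilla markers, 4 lay lower and 5 higher with collagen, and their mean level overlapped between diets, from -50.4 to 37.2 millionths in controls and from -70.7 to 99.8 with collagen. Within the collagen arrays this marker level was highest in collagen 1 and lowest in collagen 2, as Crabp1 was. The same held for the basal epidermal markers (31.2 and -9.5) and for the liver genes used as a contrast (96.2 and -42.8). The papilla level spanned less than the 330.7 millionths between array medians, so its order depends on how the arrays are scaled. Of the 9 dermal papilla markers, Corin, Alx4, Sox2, Rspo3 and Hhip had means below the median of all probe sets. All 9 dermal fibroblast markers lay lower with collagen, with mean levels of -339.1 to 706.2 in controls and -552.4 to 101.2 with collagen. Of all genes 52.9% lay higher with collagen. Of 11 hair shaft and inner root sheath markers 10 lay lower with collagen, with mean levels of -5327.0 to 12624.0 millionths in controls and -22679.5 to 14184.2 with collagen, so the diets overlapped and the lowest array was collagen 1. Whether any of these cell types had a part in the Crabp1 values was not tested.

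**Figure D1:**
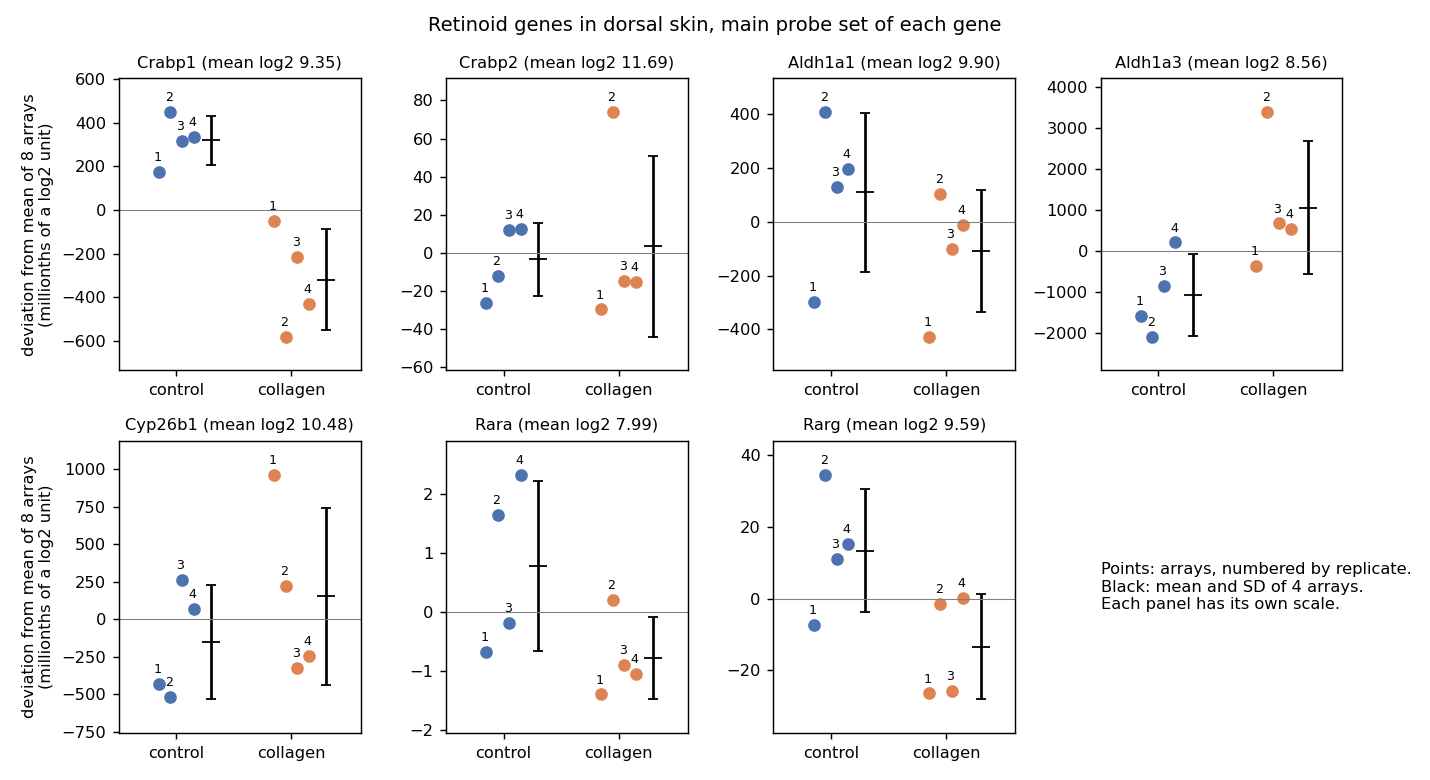
Deviation of each gene's main probe set from its mean over 8 arrays, in millionths of a log2 unit, for control (blue) and collagen (orange) arrays numbered by replicate, with black bars for mean and SD of 4 arrays and a separate scale per panel. The diets do not overlap for Crabp1 and overlap for the other 6 genes, and collagen 2 stands apart for Crabp2 at 73.9.

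Crabp2, the partner that delivers retinoic acid to its receptors, overlapped between the diets. Its probe set 1451191_at, at a mean of 11.6859, deviated by -26.3, -12.0, 12.1 and 12.5 millionths in control 1 to 4 and by -29.8, 73.9, -15.0 and -15.3 in collagen 1 to 4. Collagen 2 was the high array, and the other 3 collagen arrays lay within or just below the control range. The difference was 6.86 ± 24.6 millionths (SE, n = 4 per diet), 0.19 SD, and did not pass limma's test (adjusted p = 1 over all probe sets). It was 62.4 under quantile normalization and 62.0 under median centring, where the median gene moved to 55.2. Its direction turned when collagen 2 was left out, to -16.6, and when control 1 was left out, to -0.77.

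Aldh1a1 and Aldh1a3, which both make retinoic acid from retinal, lay in opposite directions, neither past the test. Aldh1a1 (1416468_at, mean 9.8964) deviated by -296.6, 407.3, 130.2 and 195.2 millionths in control 1 to 4 and by -426.2, 103.6, -100.9 and -12.7 in collagen 1 to 4. All 4 collagen arrays lay below the control mean, but the diets overlapped because control 1 was low. The difference was -218.1 ± 178.8 millionths (SE, n = 4 per diet), -0.83 SD (adjusted p = 1 by limma). Without control 1 it was -353.3 and the diets no longer overlapped, as for 7.43% of all genes without that array. It was -112.4 without collagen 1, -118.7 without control 2 and -100.1 under quantile normalization.

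Aldh1a3 had the widest spread of the 7 genes, with a range of 5471.7 millionths that exceeded that of 98.5% of genes. Its main probe set, 1448789_at, deviated by -1566.6, -2076.4, -836.8 and 216.7 millionths in control 1 to 4 and by -359.1, 3395.4, 681.9 and 545.0 in collagen 1 to 4. All 4 collagen arrays lay above the control mean and 3 above every control, collagen 2 by far the highest, while collagen 1 lay below control 4. The difference was 2131.5 ± 912.4 millionths (SE, n = 4 per diet), 1.59 SD (adjusted p = 1 by limma). Without collagen 2 the difference was 1355.0 millionths. The second probe set, 1427395_a_at, deviated by -88.9, -122.1, -64.3 and 28.9 in control 1 to 4 and by -137.7, 224.9, 78.8 and 80.3 in collagen 1 to 4, a difference of 123.2 ± 78.2 or 1.07 SD (adjusted p = 1 by limma). It too was highest in collagen 2, and overlapped. The third, 1417642_at, whose mean of 7.81 is below the median of all probe sets, gave -7.56, -9.16, -4.24 and -2.53 in control 1 to 4 and 2.77, 13.0, -0.76 and 8.45 in collagen 1 to 4. Here the diets did not overlap, with a difference of 11.8 ± 3.27 millionths or 2.44 SD (adjusted p = 1 by limma). All 3 probe sets lay higher with collagen as deposited, and the main and second also after quantile normalization and after median centring. The third had a range of 22.2 millionths, so its direction after median centring is fixed by that step. Its difference after quantile normalization was 4.12 millionths, where the median difference of all genes was 5.97. Over the 8 arrays the main probe set followed the second (r = 0.92, exact permutation p = 0.00179, adjusted 0.00358 over 4 probe set pairs; rho = 0.83, exact p = 0.0154) and the third (r = 0.89, exact permutation p = 0.00164, adjusted 0.00358; rho = 0.88, exact p = 0.00724).

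Cyp26b1, which hydroxylates retinoic acid and so limits its reach, varied more within diets than between them. Probe set 1460011_at, at a mean of 10.4761, deviated by -430.1, -516.6, 262.5 and 70.4 millionths in control 1 to 4 and by 961.6, 220.1, -325.1 and -242.9 in collagen 1 to 4. The highest array was collagen 1, and both diets held high and low arrays. The difference was 306.9 ± 336.5 millionths (SE, n = 4 per diet), 0.62 SD (adjusted p = 1 by limma), and it was 37.5 without collagen 1 and 90.9 with array weights.

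The receptors Rarg, the main retinoic acid receptor of epidermis, and Rara, a broadly expressed one, both lay lower with collagen as deposited, neither past the adjusted test. Rarg's main probe set, 1419415_a_at, at a mean of 9.5887, deviated by -7.25, 34.6, 11.1 and 15.2 millionths in control 1 to 4 and by -26.5, -1.57, -25.8 and 0.21 in collagen 1 to 4. All 4 collagen arrays lay below the control mean, and control 1 lay among them. The difference was -26.8 ± 10.9 millionths (SE, n = 4 per diet), -1.68 SD (adjusted p = 1 by limma). The direction turned under median centring, to 28.3 millionths, since that step adds the same amount to the difference of every gene. Under quantile normalization the difference was -207.9 millionths, with all collagen values below all control values, as for 0.126% of all genes. That step left tied values, at 233.0 or -25.1 in controls and at -73.3 or -114.2 with collagen. The range over arrays was then 347.2 millionths, against 61.1 as deposited. The second Rarg probe set, 1419416_a_at, had a range of 3.65 millionths and a difference of -1.05 ± 0.81, which turned under both scalings. Rara (1450180_a_at, mean 7.9931, below the median of all probe sets) deviated by -0.67, 1.64, -0.18 and 2.32 in control 1 to 4 and by -1.39, 0.21, -0.89 and -1.05 in collagen 1 to 4. Its range of 3.72 millionths was among the smaller ones, exceeding that of 29.7% of genes. After quantile normalization that range was 454.7 millionths. The difference of -1.56 ± 0.79 millionths (SE, n = 4 per diet), -1.39 SD (adjusted p = 1 by limma), turned to 97.3 under quantile normalization and to 53.6 under median centring, which moved the median gene by about as much.

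None of the 9 probe sets of the other 6 genes had a limma adjusted p under 0.05, and neither did any of the 45037 on the array (0%), of which 1601 had an unadjusted p under 0.05. Of the 6 main probe sets whose genes were not picked for their diet difference, 1, Rarg, had an unadjusted p under 0.05, where 3.62% of all genes did. As deposited 3 of the 7 genes, Crabp2, Aldh1a3 and Cyp26b1, lay higher with collagen and 4 lower, while 52.9% of all genes lay higher. The 4 lower genes were Aldh1a1, Rara, Rarg and Crabp1. Since Crabp1 was picked for its difference, its place among the lower genes, here and in the splits that follow, is no result. Quantile normalization gave 4 higher and 3 lower against 65.6% of all genes higher, and median centring gave 5 and 2 against 94.6%, having moved the median difference of all genes from 0.05 to 55.2 millionths. Relative to that shift under median centring, Rara and Rarg did not lie higher by more than the median gene, since their differences of 53.6 and 28.3 millionths compare with 55.2. Crabp1 and Aldh1a1 lay lower, and Aldh1a3 and Cyp26b1 higher, under all 3 scalings. Crabp2 lay higher too, but its direction after median centring is fixed by that step. After quantile normalization Crabp2 was tied at -31.2 millionths in every control, in collagen 3 and in collagen 4, with collagen 1 and collagen 2 at 93.6.

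**Figure D2:**
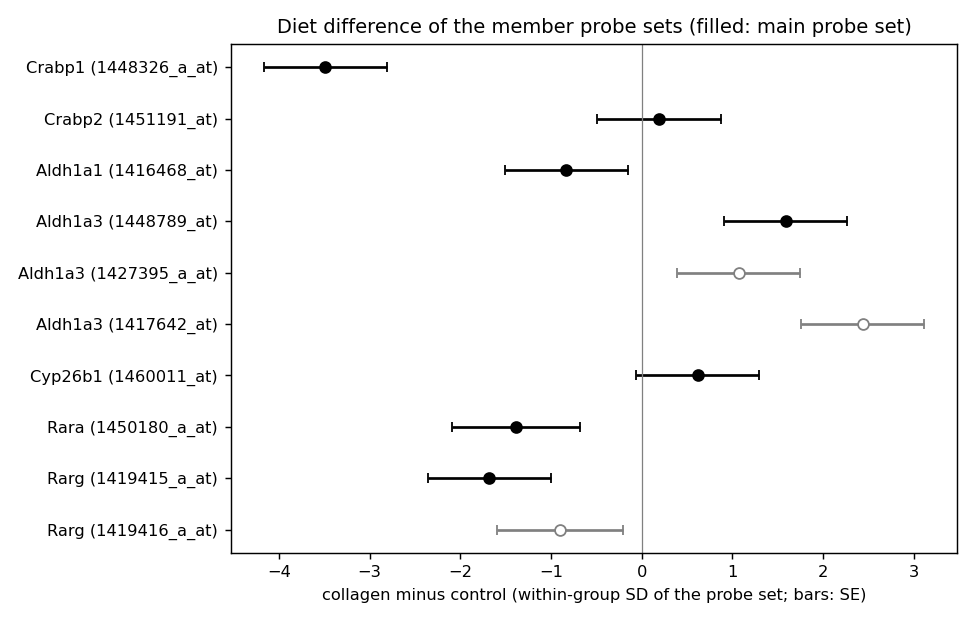
Collagen minus control for the 10 probe sets, in units of each probe set's within-diet SD, with bars for the moderated SE, as deposited. Filled points are main probe sets. Crabp1 lies lowest at -3.49 SD, a value it was picked for, and the 3 Aldh1a3 probe sets lie at 1.59, 1.07 and 2.44 SD.

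The 7 genes were next compared with each other over the 8 arrays, as 21 pairs, with exact permutation tests of r and rho that were two-sided and Benjamini-Hochberg adjusted over the pairs. Since a diet difference in both genes alone makes them covary, r was also computed after each diet mean was subtracted, with arrays permuted within diets. Of the 21 pairs 12 had a positive r and 14 kept their sign once diet means were subtracted. None passed at an adjusted p under 0.05 by r (5 had an unadjusted exact p under 0.05), 1 did by rho (6 unadjusted), and none did with diet means subtracted (3 unadjusted).

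Aldh1a1 and Rarg had the largest r as deposited, at 0.88 (exact permutation p = 0.00499, adjusted 0.0565) and rho = 0.95 (exact p = 0.00114, adjusted 0.024). With diet means subtracted r was 0.90 (exact permutation p = 0.0104, adjusted 0.109), and without collagen 1 and control 2, the arrays farthest from the Aldh1a1 median, it was 0.68. Both genes were low in collagen 1 and high in control 2. Of all genes, 3.12% had an r at least as large in size to Aldh1a1, and 1.06% to Rarg. After quantile normalization r was 0.56. After median centring it was 0.07, which carries no information on the relation, since Rarg then follows the array medians. Rara followed Aldh1a1 with r = 0.80 (exact permutation p = 0.0183, adjusted 0.0961; rho = 0.86, exact p = 0.0107, adjusted 0.113) and Rarg with r = 0.80 (exact permutation p = 0.0176, adjusted 0.0961; rho = 0.79, exact p = 0.0279, adjusted 0.117). For Rara with Aldh1a1, 8.55% of all genes had an r as large in size to Aldh1a1 and 3.01% to Rara. For Rara with Rarg the shares were 2.91% to Rara and 4.38% to Rarg. Without the 2 farthest arrays r was 0.67 and 0.66. Quantile normalization, which widened the range of Rara from 3.72 to 454.7 millionths, turned both, to -0.32 and -0.43. Median centring gave -0.09 and 0.98, and the latter follows from subtracting the same array medians from both receptors.

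Crabp1 ran opposite to Aldh1a3, with r = -0.83 (exact permutation p = 0.00538, adjusted 0.0565) and rho = -0.81 (exact p = 0.0218, adjusted 0.114). The diet difference for which Crabp1 was picked enters this r, and with diet means subtracted r was -0.69 (exact permutation p = 0.122, adjusted 0.38). Collagen 2 held the lowest Crabp1 and the highest Aldh1a3 value, and without collagen 2 and 4, the arrays farthest from the Crabp1 median, r was -0.65. The sign held under quantile normalization (r = -0.88) and median centring (r = -0.79). Within diets r was -0.11 in controls and -0.86 in collagen arrays. Over all genes, 0.621% had an r to Crabp1 at least as large in size as that of Aldh1a3, and 1.25% had one to Aldh1a3. These shares use r as deposited, so the diet difference for which Crabp1 was picked enters them too.

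Crabp2 and Aldh1a3 gave r = 0.76 (exact permutation p = 0.0481, adjusted 0.202) but rho = 0.33 (exact p = 0.428, adjusted 0.691). With diet means subtracted r was 0.93 (exact permutation p = 0.00868, adjusted 0.109), the largest of the 21 by that measure. Without collagen 2 and control 4, r was -0.05. It was 0.14 without collagen 2 alone and 0.76 without control 4 alone, so the relation rests on collagen 2. Crabp1 and Crabp2, the binding protein pair, gave r = -0.37 with no settled sign, since rho was 0.07 and r without collagen 2 and 4 was 0.54.

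**Figure D3:**
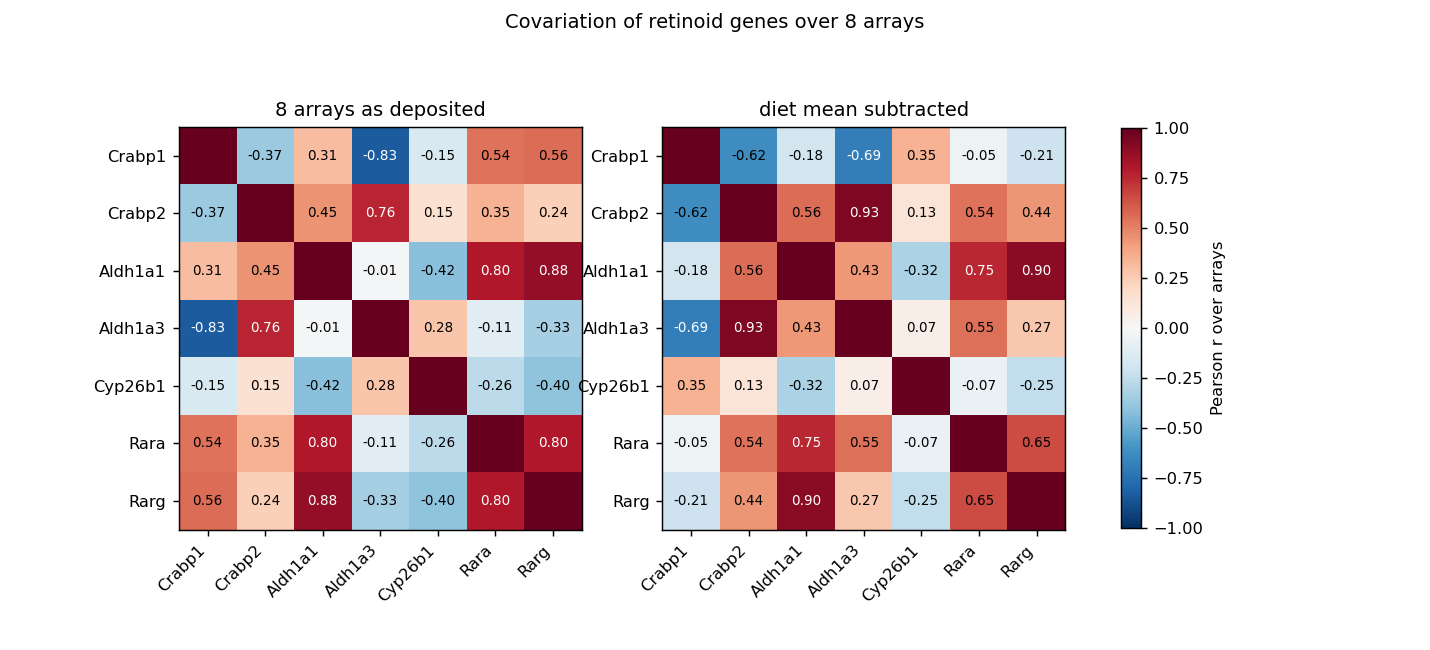
Pearson r over 8 arrays between the main probe sets of the 7 genes, as deposited (left) and with diet means subtracted (right), from -1 in blue to 1 in red. Aldh1a1, Rara and Rarg form a block with r from 0.80 to 0.88 as deposited, and Crabp1 with Aldh1a3 is the lowest cell at -0.83.

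**Figure D4:**
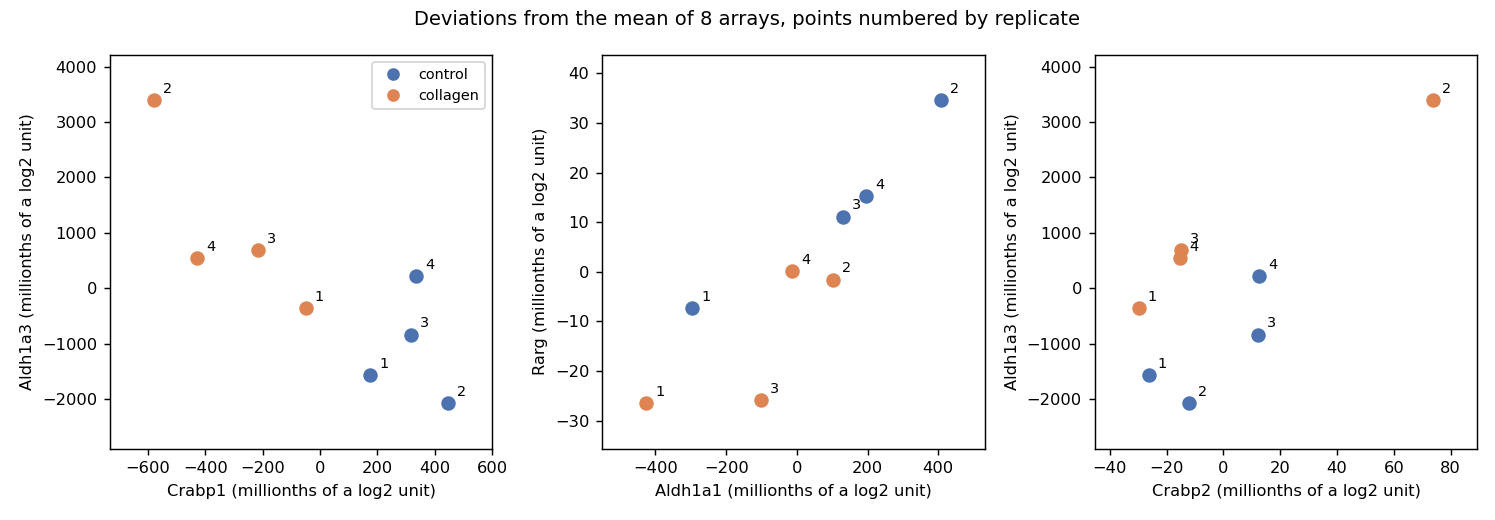
Deviations from the mean of 8 arrays, in millionths of a log2 unit, for 3 pairs of genes, with control arrays in blue and collagen arrays in orange, numbered by replicate. Aldh1a3 is plotted against Crabp1 (left) and against Crabp2 (right), where collagen 2 lies alone at the top, and Rarg against Aldh1a1 (middle), where the points run upward in both diets.

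The genes most like each member were ranked by r over the 8 arrays with diet means subtracted, among brighter genes with a range of at least 0.0001 log2 units; these r are descriptions, since 8 arrays allow many high values. For Crabp1 they were Ergic1 (0.90), Fgl2 (0.89), Gm13306 (0.87), Tac1 (0.83) and Gfra2 (0.83). Only 1 of the genes compared reached 0.9 with Crabp1, where 94 did with Aldh1a1. The leading genes were Mief2 (0.988) and Hspb2 (0.986) for Aldh1a1, Ces2f (0.953) and Crabp2 (0.934) for Aldh1a3, and Ugp2 (0.971) and Thop1 (0.967) for Crabp2. For Cyp26b1 they were Myc (0.944) and Rad1 (0.937), for Rara Myf6 (0.980) and Atp2a1 (0.963), and for Rarg Mapkapk2 (0.978) and Fkbp8 (0.969).

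Beyond the 7 genes, 58 other genes of retinoid handling were listed in 5 groups by role, and 53 were measured. None had a limma adjusted or unadjusted p under 0.05, none was without overlap between diets, and 34 lay higher and 19 lower with collagen, with a median of 0.30 SD against 0.05 SD for all genes. The split was 39 and 14 after quantile normalization and 51 and 2 after median centring, where the medians were 0.36 and 0.50 SD against 0.31 and 0.49 SD for all genes.

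In the list of enzymes that interconvert retinol and retinal, which also held the carotenoid oxygenases Bco1 and Bco2, 16 of 21 lay higher, with a median of 0.67 SD. Of all genes 52.9% lay higher. Some of the 16 barely differed, such as Bco2 by 0.001 and Dhrs3 by 0.02 millionths. The 2 with the smallest p were the dehydrogenases Dhrs7 (26.0 ± 17.0 millionths, SE) and Rdh13 (25.3 ± 17.5), both with an adjusted p = 1 by limma. Of 5 other genes of retinoic acid synthesis and clearance 4 lay higher. The exception, Aldh1a2, the embryonic retinaldehyde dehydrogenase, lay below the control mean in all 4 collagen arrays (-49.1 ± 22.3 millionths, adjusted p = 1 by limma), at a mean of 7.81 that is below the median of all probe sets. Aldh8a1 differed by 0.705 ± 0.507 millionths (adjusted p = 1 by limma). Storage and transport genes were split 6 higher and 3 lower, with Ttr, a retinol carrier partner of plasma, at 1.38 ± 0.833 and Retsat, the retinol saturase, at -4.14 ± 2.92 millionths. Receptors and cofactors were split 4 and 4, with Rarb at 1.26 ± 0.76 and Rxra at -6.3 ± 6.91 millionths.

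Genes known to respond to retinoic acid were split 4 higher and 6 lower, with a median of -0.11 SD, among them Rarres1 at 51.5 ± 37.4 and Hoxb4 at -3.36 ± 2.13 millionths. Cyp26a1, the hydroxylase whose promoter response to retinoic acid is a textbook case, lay at a mean of 7.69, below the median of all probe sets, and differed by 0.54 SD (adjusted p = 1 by limma). Its upstream window was the only 1 among 41 pathway genes with an entry to hold a direct repeat of half-sites spaced by 5 bases, a layout found in 0.0335% of all windows. The element lies 32 to 16 bases before the start, at chr19:37697756-37697807 on the plus strand with its flanks, and is shown because it is the receptor's own recognition layout. Capitals mark the half-sites, which read AGTTCA on the opposite strand.
Cyp26a1: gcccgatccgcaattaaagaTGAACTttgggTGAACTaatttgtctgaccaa

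**Figure D5:**
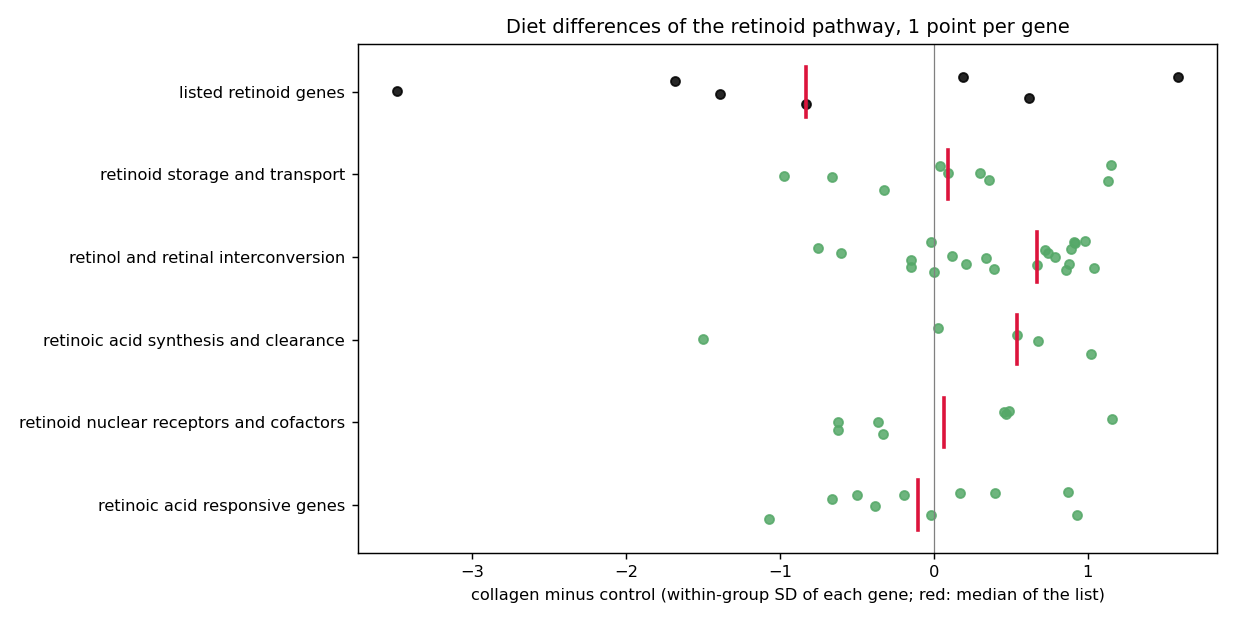
Collagen minus control in units of each gene's within-diet SD, 1 point per gene, for the 7 listed retinoid genes (black, Crabp1 at -3.49) and 5 groups of other pathway genes (green), with group medians in red. The interconversion group, which includes Bco1 and Bco2, has the highest median at 0.67 SD, and no green point passed the unadjusted test.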

How the data were processed

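Total RNA from frozen dorsal skin was hybridised to 1-colour mouse arrays, 4 per diet, per the labels. The deposited values are log2 values, 1 column per array, between 6.56 and 14.46, a scale inferred from that range. R 2.7.2 is listed per the submitters' processing notes. How probes were summarised and arrays normalized, and on which build, was not given in the sources used here. Detection calls were not used, so signal over background is unknown.

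Values were used as deposited, without 64 control probe sets. The platform annotation gave 34945 of 45037 probe sets 1 symbol, 932 several and 9160 none. The diets were compared over all probe sets with limma 3.58.1 in R 4.3.3 (lmFit, eBayes, two-sided, Benjamini-Hochberg, threshold 0.05), tested on simulated data. Correlations used scipy 1.17.1 and numpy 2.4.6, with exact permutation over the arrays; 21 pairs were possible rather than 28, since Dhrs9 is not analysed here. Other tools were data.table (version 1.17.8), Python 3.11.15, pandas 2.3.3 and matplotlib 3.10.9.

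The named genes were the members with all probe sets, the 2 genes of smallest unadjusted p in each pathway list, and the 5 (Crabp1) or 2 (other members) genes of highest diet-centred r among those with a mean at or above 8.193 and a range of at least 0.0001. Cyp26a1 was named for its promoter, after its values were seen. Members, lists and tests were chosen with earlier results of these data known. Alternatives were quantile normalization, median centring, the mean of a gene's probe sets, a filter on dim probe sets, a replicate block, a trended robust eBayes, array weights, 1 probe set per gene, and leaving out each array.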

Additional observations from a re-analysis of the deposited data

Results flagged for a closer look

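The collagen 2 value of Crabp2 stood apart from the other 3 collagen arrays: the gap to its nearest neighbour made up 0.857 of the group's whole range. It lay at 73.9 millionths of a log2 unit above the mean of 8 arrays, where the others lay between -29.8 and -15.0. Chance marks about 1 in 20 such groups; here 1 of 20 groups of the 10 probe sets was marked, and 5.37% over all genes.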

How the results depend on the processing

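No adjusted call was made on any of the 9 probe sets of the genes other than Crabp1 under any alternative run, and the direction of the member differences reversed in 7 of the alternative values. In 29 others the direction held but the size changed by over 1.5 times, 18 of them on leaving out an array, 5 under quantile normalization and 2 under median centring. The mean of a gene's probe sets gave 755.5 for Aldh1a3 and -13.9 for Rarg. Under quantile normalization, 2 probe sets of the array passed at an adjusted p under 0.05 against 0 as deposited, the Crabp1 difference was -422.2 millionths, and Rara and the second Rarg probe set reversed to 97.3 and 67.4. The 1 gene without overlap was then Rarg rather than Crabp1, and r reversed to -0.32 for Aldh1a1 with Rara and to -0.43 for Rara with Rarg. Quantile normalization also widened the range of Rara from 3.72 to 454.7 millionths, and of the main Rarg probe set from 61.1 to 347.2. Under median centring Rara reversed to 53.6, Rarg to 28.3, its second probe set to 54.1 and r of Aldh1a1 with Rara to -0.09; 0 members were without overlap, 2 pathway genes lay lower against 19, and 5 pairs passed against 0. For genes whose range is below the 330.7 millionths spanned by the array medians, such as Crabp2, Rara and Rarg, these reversals and the pairs among them follow from subtracting the medians. Spearman's rho passed 1 pair. The 1601 probe sets at an unadjusted p under 0.05 became 176 with median centring, 635 with 1 probe set per gene, 602 with the mean of a gene's probe sets, 821 without dim probe sets and 3316 with array weights. Pathway genes at that level numbered 1 with array weights against 0. Fewer features were tested in the settings that kept fewer, and otherwise the cause was not tested.

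Whether same-numbered arrays of the diets were alike was read from their deviations from the diet means, not from the levels themselves. Each probe set's deviations were divided by its within-diet SD. These deviations correlated at 0.361, 0.0581, 0.2 and 0.0343 for replicates 1 to 4. Only replicates 1 and 3 correlated best with their own number, so the numbers were not taken to pair the mice. With the replicate block 2801 probe sets and 2 pathway genes had an unadjusted p under 0.05, and 0 probe sets passed after adjustment.

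Leaving out 1 array at a time gave 0 adjusted probe sets, 0 adjusted members and 0 adjusted pathway genes each time, 1111 (without control 2) to 3416 (without collagen 4) unadjusted probe sets, 0 to 6 unadjusted pathway genes (6 without collagen 4) and 16 to 22 lower pathway genes. Members without overlap ranged from 1 to 3 (Crabp1, Aldh1a1 and Rarg without control 1, where 7.43% of all genes were without overlap), and adjusted pairs from 0 to 1. Crabp1 was among them each time by construction, since leaving out an array cannot make separated diets overlap. Crabp1 ranged from -727.5 to -551.1 millionths and Crabp2 from -16.6 to 18.0.

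The precision is limited by 4 arrays per diet, by an unknown signal over background and by spreads between arrays that are smaller than the differences between array medians for most genes.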

Other observations

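A pattern in the order of the arrays was seen after the values were examined and was not tested. In the control arrays, as deposited, Crabp1, Aldh1a1 and Rarg shared 1 order, from control 1 (lowest) through control 3 and control 4 to control 2 (highest). Quantile normalization ended it, with control 1 the highest Crabp1 control (445.0) and control 3 and control 4 tied at 91.7. After median centring it held for Crabp1 and Aldh1a1, while Rarg then follows the array medians. The share of all genes with this order is not given here. In the collagen arrays, as deposited, Crabp1 ran from collagen 2 (lowest, -579.5 millionths) through collagen 4 and collagen 3 to collagen 1 (highest, -50.2). Aldh1a1 ran in the reverse order, from collagen 1 (-426.2) to collagen 2 (103.6), and Rarg was also lowest in collagen 1 (-26.5). The reverse order of Aldh1a1 did not hold under the other scalings. Its lowest collagen array was then collagen 3, at -207.6 after quantile normalization and -176.6 after median centring.

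As deposited, all 6 melanocyte markers lay higher with collagen and all 6 endothelial markers lower, where 52.9% of all genes lay higher. The mean melanocyte marker level ran from -1440.1 to 320.9 millionths in controls and from -162.7 to 1131.7 with collagen, and the endothelial level from 1.1 to 46.5 and from -54.0 to 15.5. Skeletal muscle markers lay lower for 9 of 10, with a mean level of -60592.2 to 43467.5 in controls and -31052.9 to 25584.5 with collagen. All 3 levels overlapped between diets. The endothelial levels spanned less than the 330.7 millionths between array medians, so their direction depends on how the arrays are scaled.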
